A study of Schizosaccharomyces pombe with 72 samples.

Results

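The 77 RNAs described here were transcribed antisense to fission yeast genes and were more abundant after nitrogen deprivation. They were chosen from the 630 rows of the deposited table whose symbols contain "-antisense-", among 7014 gene rows in all. A row was taken when its mean level after 24 hr without nitrogen (T0) was at least 5 CPM and at least 3 times its mean in cycling cells at 25°C (V25). A row was left out when its mean in cycling cells at 36.5°C (V36.5) was also at least 3 times that of V25. CPM are counts scaled to 1000000 counts on gene rows per library, without the added ERCC spike-in RNAs. Levels in T0, V25 and V36.5 therefore chose the members and are given as a description, without a test.

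Ribosome-depleted RNA of Schizosaccharomyces pombe was sequenced in 72 libraries, from 6 conditions with 4 strains each and 3 biological replicates per strain. T0 cells were grown in EMM2 and kept for 24 hr in EMM2-N, the same synthetic medium without its nitrogen source, at 25°C. T4D25 and T4D36.5 cells were parts of these starved cultures after 4 more days at 25°C or at 36.5°C. V36.5 cells had made 1 doubling at 36.5°C in rich YES medium, G1 cells were held before S phase at 36.5°C by cdc10-129, a thermosensitive allele of a cell cycle transcription factor, and V25 cells were cycling in YES at 25°C. Strains 86, 92, 93 and 97 gave all conditions but G1, for which cdc10-129 strains 82, 83, 84 and 85 were used. The genotypes are wild-type, mis4-G1487D (a mutant of the cohesin loader), mip1-R401G (a mutant of the Raptor subunit of the growth kinase complex TORC1) and the double mutant. The strain numbers are not paired with these genotypes here, so each group of 12 libraries holds all 4 and no comparison with wild-type was made. T0 differs from V25 in medium as well as in nitrogen, and G1 differs from V25 in strain, temperature and cell cycle arrest, and these cannot be told apart. In bulk RNA, more cells with a transcript and more transcript per cell cannot be told apart either.

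An antisense RNA is made from the strand opposite to a gene, so that the 2 RNAs are complementary over the stretch they share. Many arise when transcription starts at the far end of a gene, when a neighbouring gene is read through its terminator, or when cryptic start sites inside a gene are used. Cells keep them low with the nuclear exosome, which degrades RNA from its 3' end, with 5' exonucleases, with the RNA interference pathway and with histone chaperones that close cryptic start sites. In fission yeast, removal of nitrogen arrests cells in G1, from where they mate or, without a partner, enter quiescence. During this arrest many genes for growth are shut off and genes for nitrogen scavenging and survival are turned on.

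Gene counts per library lay between 1173880 and 4617602 in T4D36.5, between 2018489 and 6442523 in T4D25, and between 1173880 and 7664476 over all 72 libraries. Of 16 genes listed as known to rise without nitrogen, 13 were higher in T0 than in V25, with a median log2 fold change of 3.93 over the 16. Against the list, 2 were lower, amt2 (-0.94) and cat1 (-1.34), and fnx1 did not pass the test. The kit kept the strand of the RNA, and the strand setting of the counting is not given in the sources used here. Counts of the 20 members that lie wholly inside their sense gene could still differ from those of that gene. That of psm1, for example, had a median of 0.536 CPM in V36.5, where psm1 itself had 170 CPM, and a mean of 36.2 CPM in T0. This example does not show which setting was used.

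All 77 members are annotated as a single exon, with a median length of 1600 bases (445 to 4719), against 1416 bases for the other antisense rows. There were 42 on chromosome I, 26 on chromosome II and 9 on chromosome III. The sense gene was taken as the protein-coding row on the opposite strand with the largest overlap. Its symbol or identifier in the deposited counts is carried by 74 of 77 members. The other 3 are the antisense RNAs named for fta5, SPCC417.03 and cut3, which lie opposite pfl8, SPCC417.04 and cul3. Older names of genes were not compared, so a different name need not mean a different gene. The members covered a median of 82.0% of the sense gene, against 72.6% for the other antisense rows. The sense gene was covered entirely by 15 members, and 20 lay inside it (26%, against 30.0% of the others). A coding gene with its end or start within 1000 bases upstream of the annotated 5' end was found for 52 members. For 35 of them it was transcribed in the opposite direction (45.5% of the 77, against 34.9% of the others), and for 17 on the same strand.

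The DNA at the annotated starts of 5 members is shown because the results below turn on them: the most abundant member, the member opposite the flocculin-like gene pfl8, and members with the largest falls and the largest rise on heating in quiescence. Each window runs in the direction of the antisense RNA, from 250 bases before the annotated start to 50 after it (RefSeq, ASM294v3). Capitals mark a match to any of 4 motifs searched on both strands: TTCTTTG, bound by the HMG-box regulator Ste11, GATAAG, bound by GATA factors, TGACGT, bound by the stress factor Atf1, and GTAAACA, bound by forkhead factors.
SPBC1652.02-antisense-1, chrII:4259115-4259414, minus strand: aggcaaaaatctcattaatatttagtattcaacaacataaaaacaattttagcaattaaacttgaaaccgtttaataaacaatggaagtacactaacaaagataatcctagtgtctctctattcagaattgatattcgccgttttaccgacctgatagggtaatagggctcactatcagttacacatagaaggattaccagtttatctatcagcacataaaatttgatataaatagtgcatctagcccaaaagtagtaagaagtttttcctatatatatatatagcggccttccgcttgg
fta5-antisense-1, chrI:101091-101390, minus strand: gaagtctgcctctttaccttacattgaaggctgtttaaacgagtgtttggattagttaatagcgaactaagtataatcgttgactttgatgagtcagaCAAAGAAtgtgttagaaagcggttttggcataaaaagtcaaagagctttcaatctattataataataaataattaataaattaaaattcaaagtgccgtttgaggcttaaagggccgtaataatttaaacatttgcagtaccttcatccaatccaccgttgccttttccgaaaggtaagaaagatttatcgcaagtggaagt
lid2-antisense-1, chrII:2868228-2868527, minus strand: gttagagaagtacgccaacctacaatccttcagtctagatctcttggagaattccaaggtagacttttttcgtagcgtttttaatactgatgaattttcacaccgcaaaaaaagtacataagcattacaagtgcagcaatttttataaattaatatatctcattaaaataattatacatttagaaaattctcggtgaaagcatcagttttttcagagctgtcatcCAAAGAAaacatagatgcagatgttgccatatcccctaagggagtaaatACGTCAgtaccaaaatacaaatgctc
amt3-antisense-1, chrI:2924495-2924794, plus strand: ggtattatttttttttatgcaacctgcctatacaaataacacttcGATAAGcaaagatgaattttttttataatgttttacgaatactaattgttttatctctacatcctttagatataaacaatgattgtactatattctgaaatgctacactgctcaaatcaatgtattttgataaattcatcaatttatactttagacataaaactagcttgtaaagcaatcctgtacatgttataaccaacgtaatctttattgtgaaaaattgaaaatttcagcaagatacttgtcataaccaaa
qcr10-antisense-1, chrII:2887091-2887390, minus strand: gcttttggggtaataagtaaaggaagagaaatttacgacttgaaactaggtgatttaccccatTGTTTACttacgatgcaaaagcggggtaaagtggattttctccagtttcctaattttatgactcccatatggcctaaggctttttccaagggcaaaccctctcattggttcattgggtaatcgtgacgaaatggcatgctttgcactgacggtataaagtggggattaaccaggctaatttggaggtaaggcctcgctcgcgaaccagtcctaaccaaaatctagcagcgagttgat
The window of the SPBC1652.02 antisense RNA held no match, that of lid2 held 2, and the other 3 held 1 each. Over all members, TTCTTTG was found in 8 of 77 windows (10.4%, against 11.7% of 622 windows of all antisense rows), GATAAG in 11 (14.3%, against 12.2%), TGACGT in 7 (9.09%, against 7.72%) and GTAAACA in 8 (10.4%, against 13.7%). A match is a stretch of letters and not a shown binding site.

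The rule was passed in steps: 291 antisense rows reached 5 CPM in T0, 124 of them were also at least 3-fold above V25, and 47 of these were left out because they passed 3-fold in V36.5 as well. In the opposite direction, 23 antisense rows were at least 3-fold lower in T0 than in V25. The members' summed level was 2508 CPM in T0 (median library, range 2155 to 3051), 2663 CPM in T4D25 (2418 to 3058), 2851 CPM in T4D36.5 (2403 to 3114), 608 CPM in V36.5 (501 to 668), 1092 CPM in G1 (1015 to 1190) and 392 CPM in V25 (342 to 426). The members together thus made up a small part of the RNA in every condition, and the summed levels of the starved conditions overlapped one another and lay above all G1, V36.5 and V25 libraries. The middle member had 15.1 CPM in T0, 14.9 in T4D25, 15.5 in T4D36.5, 4.79 in V36.5, 9.24 in G1 and 2.52 in V25. The ratio of T0 to V25 had a median of 4.53 over the members and ran up to 328. All 12 T0 libraries lay above all 12 V25 libraries for 67 members, and the same held for 27.2% of antisense rows with at least 1 CPM. This contrast chose the members, and nothing is read from that count.

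**Figure D1:**
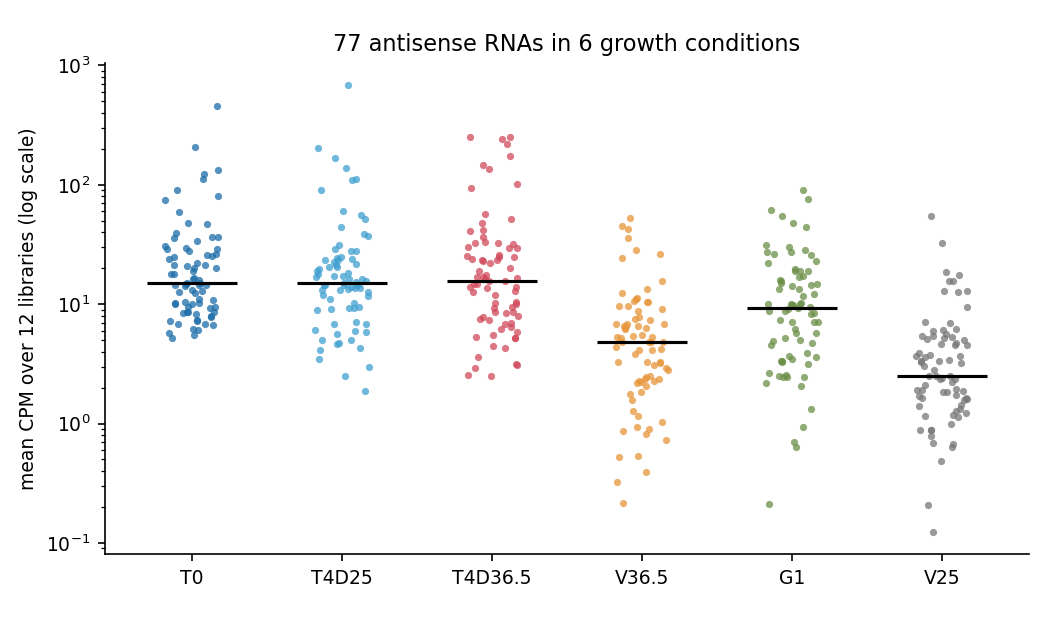
Mean CPM over 12 libraries (vertical axis, log scale) of each of the 77 antisense RNAs, drawn as a point per RNA with a bar at the median, in T0, T4D25, T4D36.5, V36.5, G1 and V25. The middle RNA has 15.1 CPM in T0, 14.9 in T4D25 and 15.5 in T4D36.5, against 9.24 in G1 and 2.52 in V25.

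The members were not raised in starved cells alone. In G1 cells, a condition the rule did not use and in which nitrogen was present, 41 of 77 members were at least 3 times their V25 level (53.2%), as were 270 of 486 other antisense rows with at least 1 CPM (55.6%). With levels of at most 3 counts per library set to 3 counts, 38 members passed. The median ratio of G1 to V25 was 3.23 over the members and 3.38 over the other rows, and both share the V25 level that the rule required to be low. The median ratio of T0 to G1 was 1.71 over the members and 0.438 over the other rows, and the members' T0 level was chosen to be high. Of the members, 63 were higher and 14 lower in T0 than in G1, against 78 and 408 of the 486 other rows. In V36.5 the median ratio to V25 was 1.65, and 32 of 77 members were at least 2-fold above V25. Of the other rows 232 of 486 were, with a median ratio of 1.93, and the rule kept only the members under 3-fold. The name "raised by nitrogen deprivation only" thus describes the members relative to V36.5 and not relative to G1.

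The G1 mean was at least 2 times that of V25 for 58 of 77 members, against 356 of 486 other antisense rows, and lower than V25 for 5 members, against 33 of the 486, so both counts were near the share of the other rows. The 5 members were those opposite rad2, ubx3, rec11, rad52 and rad15. For rad52 (0.213 CPM in G1, 0.486 in V25) and rad15 (0.632 and 0.671) the direction is uncertain. Their means were under the mean level of 3 counts per library, 0.634 CPM in G1 and 1.03 CPM in V25. T0, the level that the rule chose to be high, was at least 3-fold above G1 for 19 members, against 12 of the 486 other rows. T0 was at least 10-fold above G1 for 9 members, those opposite SPBC1652.02, SPAC11D3.15, rad2, psm1, SPBC887.16, rad55, rec11, rad52 and rad15. Of these 9 sense genes, 6 act in DNA repair or in cohesion between sister chromatids. This theme was seen after reading the values and was not tested. The share of such genes among all sense genes was not counted. Members opposite other genes of this kind were not among the 9. Their ratios of T0 to G1 were 2.02 for rad50, 1.24 for slx4 and 3.02 for psm3.

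**Figure D2:**
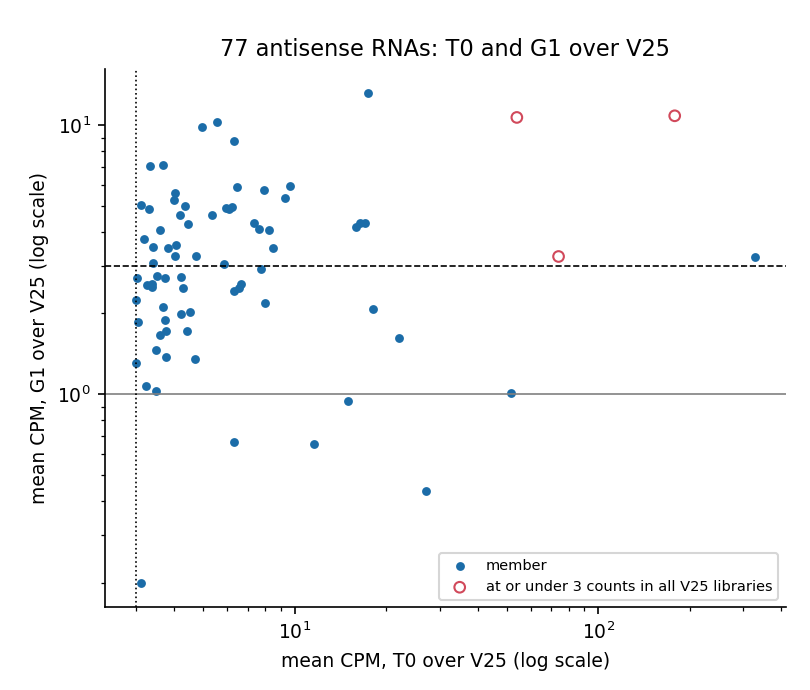
Ratio of mean CPM in G1 to V25 (vertical axis, log scale) against the ratio in T0 to V25 (horizontal axis, log scale), with 1 point for each of the 77 antisense RNAs. Open points mark RNAs with at most 3 counts in every V25 library. They are drawn at the ratio of raw means, which is uncertain and is not a lower bound. That of rad55 is drawn at a T0 ratio of 179, where the floor of 3 counts gives at least 21.3. The 41 RNAs at or above a G1 ratio of 3 span much of the T0 range.

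The most abundant member was SPBC1652.02-antisense-1 (SPNCRNA.577, chromosome II, 4255755 to 4259164, minus strand), which overlaps 91.4% of a gene for an amino acid transporter of the APC family. Over the libraries it had 364 to 569 CPM in T0 (median 475), 566 to 853 in T4D25 (median 656), 83.5 to 521 in T4D36.5 (median 220), 0 to 1.79 in V36.5 (median 0.906), 1.22 to 12.4 in G1 (median 3.09) and 0 to 3.37 in V25 (median 1.16). Every starved library was far above every library grown with nitrogen. Its sense gene ran the other way, with 1.83 to 6.70 CPM in T0 (median 3.91), 1.49 to 3.21 in T4D25 (median 2.51), 12.3 to 52.0 in T4D36.5 (median 26.4), 190 to 263 in V36.5 (median 228), 171 to 238 in G1 (median 199) and 244 to 405 in V25 (median 290). All T0 libraries were thus below all V25 libraries for the sense gene, with a log2 fold change of -6.36 (SE 0.093, edgeR quasi-likelihood test, adjusted p = 9.7e-45). Among the 76 sense genes tested, this was the largest fall.

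**Figure D3:**
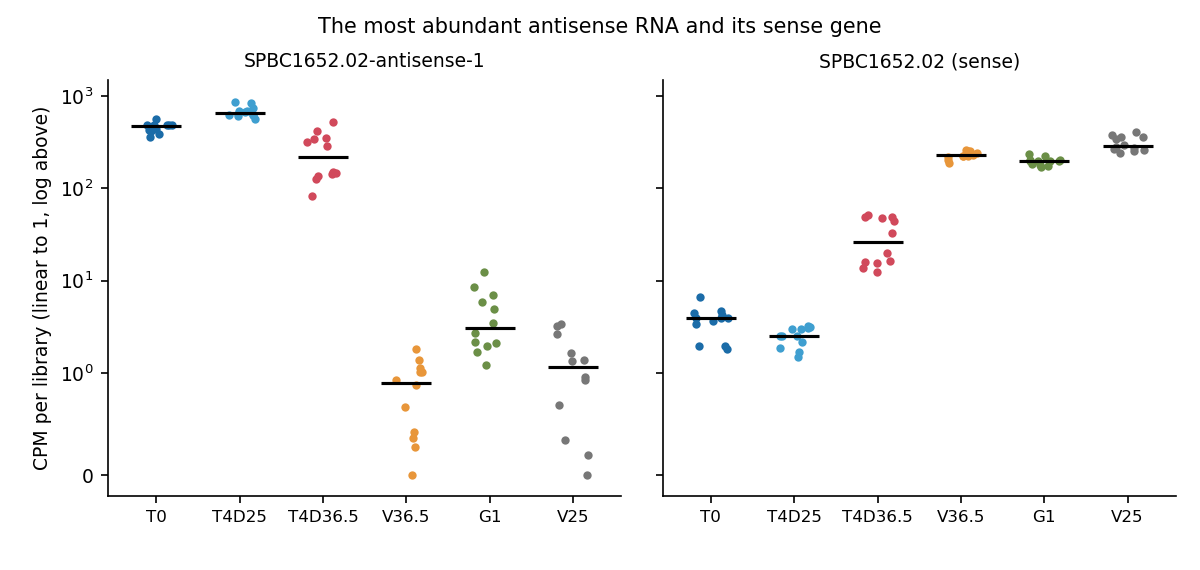
CPM of SPBC1652.02-antisense-1 and of its sense gene SPBC1652.02 (vertical axis, linear to 1 and log above) in T0, T4D25, T4D36.5, V36.5, G1 and V25, with 1 point per library, 12 libraries per condition and a bar at the median. The antisense RNA has 364 to 569 CPM in T0 against 0 to 3.37 in V25, and the sense RNA has 1.83 to 6.70 CPM in T0 against 244 to 405 in V25.

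Opposite sty1, the stress-activated MAP kinase of fission yeast (SPNCRNA.622, chromosome I, 206775 to 209401, plus strand), the antisense RNA had 91.2 to 153 CPM in T0 (median 133) and 7.41 to 19.6 CPM in V25 (median 16.4). It was between 79.3 and 153 CPM in T4D25 (median 109) and between 158 and 301 CPM in T4D36.5 (median 207). T4D36.5 lay wholly above T4D25, and V36.5 (18.6 to 35.3 CPM, median 22.8) overlapped V25. In G1 it lay between 34.4 and 152 CPM with a median of 40.9, so that a G1 library reached the T0 level. The sty1 mRNA itself spanned 45.4 to 117 CPM in T0 (median 65.1) and 74.6 to 167 CPM in V25 (median 104), and these ranges overlapped.

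Other abundant members had sense genes that were scarce in both conditions or that rose. SPCC417.03-antisense-1 had 97.5 to 145 CPM in T0 (median 125) against 26.4 to 47.5 in V25 (median 32.4), and SPCC417.04 opposite it had a median of 6.78 CPM in T0 (lowest 2.12, highest 10.04) against 0.242 to 2.78 in V25 (median 0.999). Opposite psu2, a beta-glucosidase by its annotation, the antisense RNA had 39.2 to 56.9 CPM in T0 (median 47.9) against 3.98 to 31.0 in V25 (median 12.2). The psu2 mRNA had 7.64 to 72.6 CPM in T0 (median 32.8) against 1.62 to 6.54 in V25 (median 3.08). For psu2 both strands were thus higher in every T0 library than in any V25 library. By contrast, fta5-antisense-1 had 47.3 to 106 CPM in T0 (median 68.9) against 2.24 to 8.16 in V25 (median 4.45), and pfl8 opposite it, which encodes a cell surface glycoprotein, had 3.82 to 10.2 CPM in T0 (median 7.18) against 13.5 to 72.6 in V25 (median 39.6). The 2 strands moved in opposite directions there, with no overlap between T0 and V25 on either strand.

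The genes mug68 and mug93 are named for their rise in meiosis, and their antisense RNAs were among the 10 most abundant members. That of mug68 had 48.1 to 132 CPM in T0 (median 98.1) against 9.18 to 24.6 in V25 (median 15.7). That of mug93 had 63.3 to 102 CPM in T0 (median 77.9) against 4.63 to 25.6 in V25 (median 10.3), and mug93 itself was too low to be tested. The antisense RNA of mmp2, SPBC336.13c-antisense-1, had 70.7 to 148 CPM in T0 (median 119), 74.0 to 111 in G1 (median 87.7) and 10.1 to 24.6 in V25 (median 19.3). For these 3 members T0 did not overlap V25, and for the last T0 overlapped G1. SPAC890.05-antisense-1, opposite the ribosome biogenesis gene pxr1, was the least even of the leading members, with 28.4 to 418 CPM in T0 (median 215) against 32.7 to 99.8 CPM in V25 (median 50.3), so that some T0 libraries were at the V25 level.

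Levels in G1 are given next for 3 of the members with T0 at least 10-fold above G1. The antisense RNA of rad2, the flap endonuclease of DNA replication and repair, had 26.4 to 56.1 CPM in T0 (median 37.7), 0.497 to 5.22 in G1 (median 2.39) and 8.58 to 19.6 in V25 (median 12.2). It was also low in V36.5, at 0 to 2.28 CPM, so both conditions at 36.5°C with nitrogen lay below V25. The antisense RNA of psm1, the Smc1 subunit of cohesin, had 25.5 to 45.6 CPM in T0 (median 35.7), 1.24 to 4.41 in G1 (median 2.74) and 0.342 to 3.93 in V25 (median 1.39). That of rec11, a meiotic cohesin subunit, had 11.8 to 22.4 CPM in T0 (median 15.1), 0.190 to 1.60 in G1 (median 0.975) and 0.463 to 2.49 in V25 (median 1.38). In psm1 and rec11 the G1 and V25 ranges overlapped and T0 stood above both. Members at or under 3 counts in every V25 library allow only lower bounds, and T0 was at least 45.4-fold higher than V25 for SPAC11D3.15-antisense-1, at least 21.3-fold for that of rad55 and at least 10.7-fold for that of gem6. For the antisense RNA of rad52, T0 was at least 20.8-fold higher than G1. These bounds use a floor of 3 counts in each library.

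Members close to the thresholds show how narrow the edges were. Just inside the T0 to V25 ratio of 3 were the antisense RNAs of imt2 (3.00), srp2 (3.00) and mug30 (3.03), and just outside were those of mcb1 (2.98), SPCC1919.13c (2.98) and SPAC222.13c (2.95). For the V36.5 to V25 ratio, those of oac1 (2.91), cct5 (2.84) and SPBC28F2.05c (2.81) were inside, and those of nto1 (3.03), SPAC824.04 (3.11) and SPCC1322.02 (3.12) outside. For the level in T0, those of cdc7 (5.18 CPM), sec2302 (5.47) and srp2 (5.69) were inside, and those of SPBC3B9.04 (4.77), fft2 (4.68) and SPAC10F6.08c (4.53) outside.

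The rule used the antisense levels only, so the sense genes could be tested in T0 against V25. Of 76 sense genes with enough counts, 27 were higher, 35 were lower and 14 did not pass the test in T0, with a median log2 fold change of -0.17. Among all protein-coding genes, 42.4% were higher and 42.1% lower in T0. Sense genes thus moved in both directions, and a raised antisense RNA stood opposite falling and rising mRNAs alike. Among the 20 nested members 9 sense genes rose and 8 fell, among the 15 that cover the sense gene 3 rose and 10 fell, and among the 42 partly overlapping members 15 rose and 17 fell. The change in T0 over V25 differed among the 4 strains for 15 of 76 sense genes (19.7%, against 10.3% of all genes).

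The largest falls after SPBC1652.02 were in met10, a subunit of sulfite reductase (log2 fold change -3.37), pfl8 (-2.37), the cyclophilin gene wis2 (-2.26) and arg82, an inositol polyphosphate kinase (-2.06). The largest rises with counts in V25 were in psu2 (3.16, SE 0.25) and SPCC417.04 (2.86, SE 0.22). A further 3 sense genes had at most 3 counts in every V25 library: T0 was at least 4.92-fold higher for SPAC869.09, at least 2.83-fold for SPBC887.16 and at least 2.68-fold for SPBC16E9.20. On both strands of these 3 loci, T0 was therefore above V25.

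Antisense RNA was the more abundant strand at a minority of loci. Per base of transcript, the antisense RNA exceeded its sense mRNA at 24 loci in T0, 22 in T4D25 and 19 in T4D36.5, against 8 in V36.5, 11 in G1 and 8 in V25. The median ratio of antisense to sense level per length was 0.563 in T0, 0.444 in T4D25, 0.407 in T4D36.5, 0.111 in V36.5, 0.221 in G1 and 0.0626 in V25. These ratios contain the antisense levels that chose the members.

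Most members were still above V25, the level that the rule required to be low, after 4 days of quiescence. T4D25 was at least 3 times V25 for 63 members (median ratio 4.57), against 21.6% of the other antisense rows (median 1.30). T4D36.5 was at least 3 times V25 for 56 members (median ratio 5.10), against 42.8% of the other rows (median 2.37). The median ratio of T4D25 to T0 was 0.909, and 10 members were at least 2-fold lower and 2 at least 2-fold higher in T4D25 than in T0. Among the 486 other antisense rows these counts were 42 and 22, with a median ratio of 0.955, and only the members had been chosen for a high T0 level. SPAC11D3.15-antisense-1 was among those that declined, with 3.72 to 16.8 CPM in T4D25 (median 8.89) against 35.4 to 61.0 in T0 (median 46.1). That of rad55, a mediator of recombination, went the other way, with 28.4 to 50.1 CPM in T4D25 (median 37.6) against 13.4 to 27.6 in T0 (median 23.3). Neither pair of ranges overlapped. The highest of the 6 conditions was T4D36.5 for 35 members, T0 for 23, T4D25 for 12 and G1 for 7. The rule chose T0 to be high and kept V25 and V36.5 from being the highest. These counts were not made over the other antisense rows, so no trait of the members is read from them.

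Heating quiescent cells raised some members and lowered others. In T4D36.5 against T4D25, which the rule did not use, 31 of 77 members were higher, 27 were lower and 19 did not pass the test, with a median log2 fold change of -0.02. Among the 477 other antisense rows, 57.2% were higher and 15.7% lower, with a median of 0.72, and among all gene rows 35.4% were higher and 33.4% lower. The median of the members thus lay below that of the other antisense rows and close to 0. The rule had left out rows at least 3-fold higher in V36.5 than in V25. Of the 486 other antisense rows with at least 1 CPM, 161 were such rows (33.1%). The 2 lists therefore differed by choice in their response to heat in cycling cells, and no trait of the members is read from this difference. All 4 strains had the same direction for 26 of the 31 that rose and for 25 of the 27 that fell. All 12 T4D36.5 libraries were above all T4D25 libraries for 7 members and below them for 10, and over antisense rows with at least 1 CPM these shares were 19.3% and 3.09%.

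The 5 largest falls on heating were between 1.82 and 1.98 on the log2 scale. Opposite lid2, a histone demethylase, the antisense RNA had 2.60 to 15.3 CPM in T4D36.5 (median 5.69) against 13.8 to 27.9 in T4D25 (median 23.0), a log2 fold change of -1.98 (SE 0.15, edgeR quasi-likelihood test, adjusted p = 7e-16). That of amt3, an ammonium transporter, had 0.529 to 9.64 CPM in T4D36.5 (median 4.81) against 14.3 to 21.3 in T4D25 (median 17.2), a log2 fold change of -1.95 (SE 0.15, adjusted p = 1.62e-15 by the same edgeR test). That of gto1, an alpha-glucosidase, had 7.43 to 28.4 CPM in T4D36.5 (median 14.7) against 48.6 to 67.0 in T4D25 (median 55.0), a log2 fold change of -1.94 (SE 0.094, adjusted p = 4.8e-23, edgeR). For amt3 and gto1 the ranges did not overlap, and for lid2 the highest heated library passed the lowest unheated one. The antisense RNAs of SPAC869.09 (log2 fold change -1.91) and rad2 (-1.82) completed the 5 largest falls, with 1.59 to 3.76 CPM against 4.55 to 16 CPM and 1.33 to 8.46 CPM against 11.6 to 22.6 CPM in T4D36.5 against T4D25.

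The largest rise was in the antisense RNA of qcr10, a subunit of respiratory complex III. It had 7.47 to 38.6 CPM in T4D36.5 (median 24.4) against 3.47 to 9.25 in T4D25 (median 5.35), a log2 fold change of 1.86 (SE 0.18, edgeR quasi-likelihood test, adjusted p = 5.94e-13), with overlapping ranges. SPBC887.16-antisense-1 followed, with 16.2 to 70.2 CPM in T4D36.5 (median 42.1) against 5.91 to 25.4 in T4D25 (median 10.6) and a log2 fold change of 1.64. SPBC215.10-antisense-1, opposite odr1, had 28.4 to 82.0 CPM in T4D36.5 (median 48.0) against 9.63 to 19.8 in T4D25 (median 14.8), a log2 fold change of 1.63 without overlap. The antisense RNAs of cct5, a subunit of the cytosolic chaperonin (1.60), and of mok13, an alpha-glucan synthase (1.44), were scarce, with medians of 8.11 CPM against 2.09 CPM and 5.58 CPM against 1.64 CPM in T4D36.5 against T4D25. The abundant antisense RNA of sty1 rose by 0.90 on the log2 scale (adjusted p = 5.96e-12, edgeR), and that of rad55 reached 71.7 to 117 CPM in T4D36.5, at least 90.1-fold above V25.

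The sense genes also moved both ways on heating. Of 76 tested, 32 were higher, 23 were lower and 21 did not pass the test in T4D36.5 against T4D25, with a median log2 fold change of 0.13, where 28.5% of all protein-coding genes were higher and 38.6% lower. Without replicate 2, 20 sense genes were higher. Both strands passed the test at 42 loci, and at 28 of them the strands moved in opposite directions. At 16 loci the antisense RNA fell and the sense gene rose, at 12 the antisense RNA rose and the sense gene fell, and at 14 both moved the same way. No test was made of these counts. They were not counted over the other antisense rows, so no trait of the members is read from them.

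**Figure D4:**
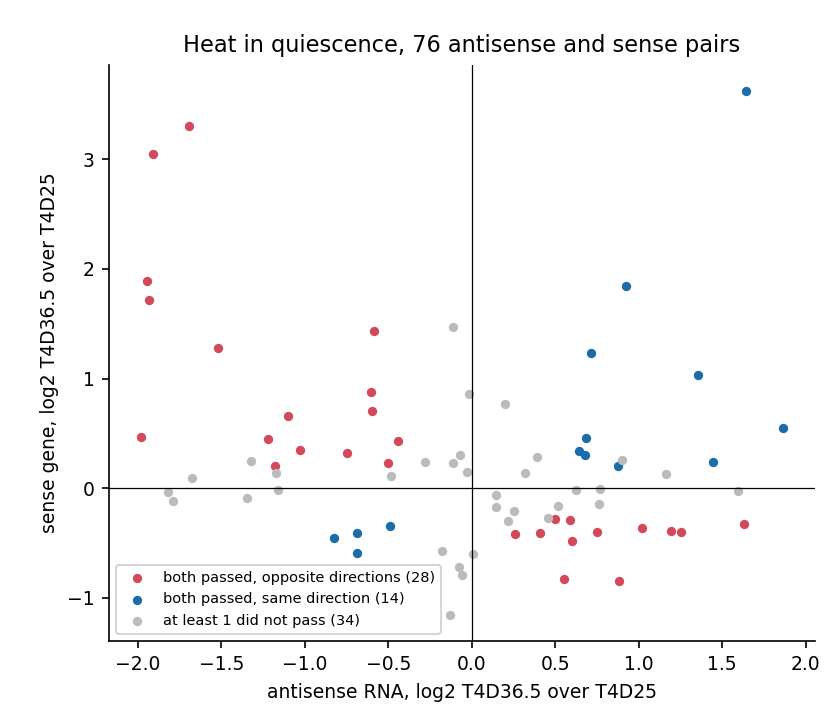
Log2 fold change of the sense gene (vertical axis) against that of its antisense RNA (horizontal axis) in T4D36.5 over T4D25, for 76 pairs tested. Colours mark the 28 pairs in which both strands passed the test and moved in opposite directions, the 14 in which both moved the same way, and the rest.

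The opposite pairs included 4 of the 5 largest antisense falls. The sense SPBC1652.02 mRNA was 12.3 to 52.0 CPM in T4D36.5 against 1.49 to 3.21 in T4D25, a log2 fold change of 3.31 (SE 0.11, edgeR quasi-likelihood test, adjusted p = 1.05e-29), while its antisense RNA fell by 1.69 (SE 0.13, adjusted p = 2.79e-16, edgeR). The amt3 mRNA had 11.7 to 29 CPM in T4D36.5 (median 17.1) against 2.95 to 6.02 in T4D25 (median 4.28), a log2 fold change of 1.89 without overlap. The gto1 mRNA had 23.3 to 39.2 CPM in T4D36.5 (median 26.2) against 4.28 to 14.4 in T4D25 (median 7.98), a log2 fold change of 1.72, also without overlap. SPAC869.09 rose furthest in level, with 245 to 1540 CPM in T4D36.5 (median 928) against 24.4 to 229 in T4D25 (median 95.1) and a log2 fold change of 3.05. SPBC887.16 was a case of the other kind, in which the sense gene rose by 3.62 on the log2 scale together with its antisense RNA, and qcr10 rose on both strands as well (sense log2 fold change 0.55).

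Strains 86, 92, 93 and 97 were compared within each starved condition. In T0, 1 of 77 members differed among the strains, against 0.923% of all genes, and 8 members had an unadjusted p under 0.05. It was the antisense RNA of rct1, an RNA-binding cyclophilin, with strain means of 5.26 CPM in strain 86, 33.1 in strain 92, 34.5 in strain 93 and 25.8 in strain 97 (3 libraries each, edgeR quasi-likelihood test, adjusted p = 0.000478). The next were SPAC869.09-antisense-1 (adjusted p = 0.0707, edgeR) and fta5-antisense-1 (adjusted p = 0.300, edgeR), which missed the threshold. With the replicate number as a block, 7 members passed in T0, and without replicate 1 or without replicate 2 none of the 77 did by edgeR. In T4D25, 0 of 77 passed by edgeR, against 1.8% of all genes, with 11 at an unadjusted p under 0.05, 3 by DESeq2, 3 by the likelihood ratio test and 7 with the block. The smallest value there was that of SPAC11D3.15-antisense-1 (adjusted p = 0.0790, edgeR).

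After 4 days at 36.5°C the strains diverged. In T4D36.5, 26 of 75 members tested differed among strains, against 25.7% of all genes and 30.5% of antisense rows, and 12 did so without replicate 1 and 6 without replicate 2. The smallest p was that of SPCC417.03-antisense-1 (adjusted p = 4.55e-06, edgeR), with means of 356 CPM in strain 86, 107 in strain 92, 139 in strain 93 and 368 in strain 97. SPBC1652.02-antisense-1 was likewise higher in strains 86 and 97 than in strains 92 and 93, at 376 CPM in strain 86, 120 in strain 92, 143 in strain 93 and 370 in strain 97. Its sense mRNA was low where the antisense RNA was high, with 15.3 CPM in strain 86, 44.5 in strain 92, 46.5 in strain 93 and 16 in strain 97. Strains 86 and 97 thus stood apart from strains 92 and 93 at this locus, on both strands.

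The change on heating itself differed among the strains for 12 of 77 members (15.6%), against 9.72% of all genes and 6.92% of the other antisense rows (edgeR, strain by heat interaction). Without replicate 1 there were 5, without replicate 2 there were 2, and with the replicate block 21. SPBC1652.02-antisense-1 fell by 2.38 and 2.17 on the log2 scale in strains 92 and 93, and by 1.09 and 1.14 in strains 86 and 97. SPCC417.03-antisense-1 had fold changes of 0.64 and 0.50 in strains 86 and 97 and of -0.81 and -0.41 in strains 92 and 93. That of psu2 had 0.27 and 0.83 in strains 86 and 97 and -0.58 and -0.97 in strains 92 and 93. In all 3 the values of strains 86 and 97 were above those of strains 92 and 93, as they were for that of gto1. The order was reversed for those of amt3, lid2, rec11, rad15, wis2, pfl4 and SPAC19B12.01, and mixed for that of rad50. That of amt3 had -2.29 and -2.99 in strains 86 and 97 and -1.34 and -1.17 in strains 92 and 93.

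**Figure D5:**
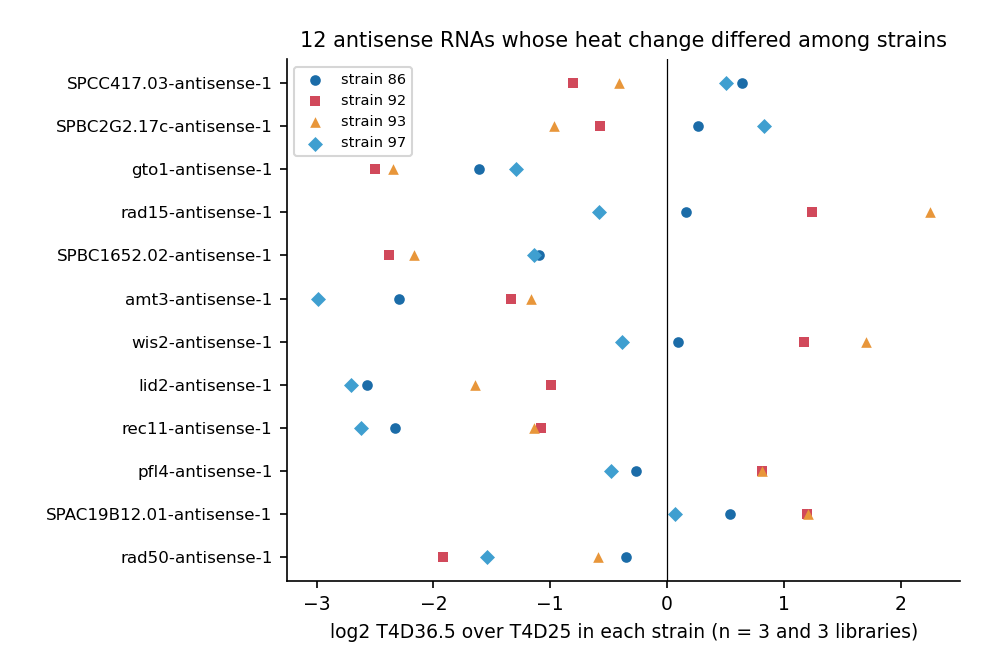
Log2 fold change in T4D36.5 over T4D25 (horizontal axis) in each of strains 86, 92, 93 and 97, with 3 libraries per strain and condition, for the 12 antisense RNAs whose change on heating differed among strains. SPBC1652.02-antisense-1 falls by 2.38 and 2.17 in strains 92 and 93 and by 1.09 and 1.14 in strains 86 and 97. The antisense RNA of amt3 has the reverse order, with -2.29 and -2.99 in strains 86 and 97 and -1.34 and -1.17 in strains 92 and 93.

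Coding genes just upstream of the members were examined because a shared or read-through promoter would be found there. Of 52 such neighbours, 24 were higher, 18 were lower and 10 did not pass the test in T0 against V25, close to the 44.8% higher and 37.3% lower among all genes. The largest rise was in cmc4, which starts 51 bases from SPAC19B12.01-antisense-1 in the opposite direction, with 27.9 to 57.5 CPM in T0 (median 47.9) against 1.63 to 6.17 in V25 (median 3.16) and a log2 fold change of 3.74. SPAC24B11.05, which ends 694 bases before the sty1 antisense RNA on the same strand, had 270 to 498 CPM in T0 (median 412) against 33.6 to 103 in V25 (median 56.5) and a log2 fold change of 2.77. Both genes were higher in every T0 library than in any V25 library. The next 3 rises were in gst3 (2.57, 113 bases from the slx4 antisense RNA), pgc1 (2.52, 28 bases from that of gem6) and SPBC887.17 (2.51, 382 bases from SPBC887.16-antisense-1), all 3 divergent. Of the 8 coding genes that overlap a member on its own strand, 4 were higher, 3 were lower and 1 did not pass the test in T0. Whether reads of a member come from such a gene was not tested.

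Most genes that limit antisense RNA had lower mRNA levels in T0. Of 62 genes on a list of RNA decay, silencing, termination and chromatin factors, 9 were higher, 43 were lower and 10 did not pass the test in T0 against V25. Their median log2 fold change was -0.49. Among all protein-coding genes, 42.4% were higher and 42.1% lower. The exosome and its cofactors had 14 lower and 1 higher of 18, the 5' exonucleases 3 lower of 3, the termination factors 8 lower and 1 higher of 10, the genes for histone methylation and deacetylation 9 lower and 1 higher of 11, and the genes for chromatin over gene bodies, among them histone chaperones, 7 lower and 1 higher of 11. The RNA interference genes were the exception in direction, with 5 higher and 2 lower of 9. Many genes for growth are on this list, and their part in the antisense levels was not tested.

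The largest falls on the list were in spt16 and pob3, the subunits of the histone chaperone FACT, and in dis3, the catalytic subunit of the exosome. The spt16 mRNA had 77.8 to 114 CPM in T0 (median 103) against 247 to 303 in V25 (median 282), a log2 fold change of -1.52. The dis3 mRNA had 40.3 to 70.3 CPM in T0 (median 51.3) against 102 to 178 in V25 (median 139), a log2 fold change of -1.35, and pob3 had -1.43. No T0 library overlapped a V25 library for spt16 or dis3. The largest rise was in arb2, a subunit of the Argonaute chaperone complex, with 45.1 to 86.1 CPM in T0 (median 69.0) against 6.86 to 18.5 in V25 (median 13.3) and a log2 fold change of 2.44. Its partner arb1 had 1.23, and hrr1, an RNA helicase of the RNA-directed RNA polymerase complex, had 0.96.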

How the data were processed

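The authors sequenced ribosome-depleted RNA with a stranded ligation kit and paired reads of 58 bases, aligned the reads with STAR 2.7.10a and made the deposited gene counts with featureCounts 1.5.1, after bcl2fastq. The counts are whole numbers, not normalized. The whole table was used and 0 columns were left out. The 92 ERCC spike-in rows were set aside. Coordinates of the table match ASM294v2, and all 77 members have the same coordinates in ASM294v3, from which RefSeq sequences and products were taken.

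Levels are CPM over gene rows. Tests used edgeR 4.0.16 in R 4.3.3 (filterByExpr, TMM scaling, quasi-likelihood F test), with 1 mean per strain and condition. Condition contrasts average the 4 strains, p-values were adjusted by Benjamini and Hochberg over all rows tested, and a row was called under 0.05. Strain differences were tested over 3 degrees of freedom. The strain by heat interaction and the test of own-strand genes were added after seeing the data. Summaries used Python 3.11.15, pandas 2.3.3, numpy 2.4.6 and matplotlib 3.10.9. Alternatives were DESeq2 1.42.0, its size factors, a likelihood ratio test, other filters, spike-in or ribosomal RNA rows in or out, a replicate block and each replicate left out. The fits were tested on simulated data.

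The members and lists were chosen with earlier results of these data known. Named members are the 10 highest in T0, the 5 largest rises and falls on heating, those with the smallest p among strains (3 in T0, 1 in T4D25 and 1 in T4D36.5) and 3 on each side of each threshold. Named sense genes are those of named members and the 5 largest rises and falls, with 3 rises and 3 falls of the control list and 5 rises of the neighbours. Other genes were named after their values were seen, namely those opposite rad55, rad52, rad15, rec11, psm1, SPAC11D3.15, gem6 and ubx3. Total counts per library were 1173880 to 7664476, and floors cover counting error only. Each SE was derived from the edgeR quasi-likelihood statistic, which includes the spread among replicate libraries.

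The labels give the replicate number as a batch, so the numbers pair the samples. In the same strain, deviations from group means in T4D36.5 and T4D25 had a mean correlation of 0.319 for equal numbers and -0.157 for different ones, and in T0 and V25 0.171 and -0.0845. Between strains of the same condition these values were 0.495 and -0.245 in T0, 0.376 and -0.184 in T4D25, and 0.250 and -0.123 in T4D36.5. The main tests did not use this pairing. With the replicate block, more members passed the strain tests in T0 and T4D25 and the strain by heat interaction. No library was a copy of another.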

Additional observations from a re-analysis of the deposited data

Results flagged for a closer look

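The change in T4D36.5 over T4D25 differed among strains 86, 92, 93 and 97 for 12 of the 77 antisense RNAs (edgeR strain by heat interaction, adjusted over all genes, 3 libraries per strain and condition). The smallest adjusted p by edgeR were those opposite SPCC417.04 (SPCC417.03-antisense-1, 1.08e-06) and psu2 (SPBC2G2.17c-antisense-1, 7.43e-05), in which the fold changes were above 0 in strains 86 and 97 and below 0 in strains 92 and 93. The antisense RNAs of gto1 (adjusted p = 0.00205, edgeR) and SPBC1652.02 (0.00855) were lower in T4D36.5 in every strain, and further so in strains 92 and 93. Those of lid2 (0.0105), amt3 (0.00926) and rec11 (0.0186) were also lower in every strain, but further so in strains 86 and 97, with log2 fold changes for amt3 of -2.29 in strain 86, -1.34 in strain 92, -1.17 in strain 93 and -2.99 in strain 97. Those of rad15 (0.00823), wis2 (0.00962), pfl4 (0.0314) and SPAC19B12.01 (0.0414) were higher in strains 92 and 93 than in strains 86 and 97, and that of rad15 reached a log2 fold change of 2.25 in strain 93 against -0.58 in strain 97. For rad50 (0.0446) the strains fell into another order, with -0.35 in strain 86, -1.92 in strain 92, -0.59 in strain 93 and -1.54 in strain 97. The strain numbers carry no genotype here.

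Among the named sense genes, the T0 to V25 change differed among strains for wis2 (adjusted p = 3.51e-07, edgeR), pxr1 (7.43e-06), pfl8 (0.000257), rct1 (0.00355), SPBC1652.02 (0.0128) and odr1 (0.0176). The pxr1 mRNA had log2 fold changes of 0.63 in strain 86, -0.57 in strain 92, -0.76 in strain 93 and 0.42 in strain 97. The change on heating differed for wis2 (adjusted p = 4.47e-07, edgeR), SPBC1652.02 (3.5e-05) and mug68 (0.0124). The SPBC1652.02 mRNA rose by 2.24 in strain 86, 4.30 in strain 92, 3.88 in strain 93 and 2.81 in strain 97 on the log2 scale. In these 3 genes strains 86 and 97 again lay on one side of strains 92 and 93. The causes were not tested.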

How the results depend on the processing

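A T0 to V25 ratio of at least 2 gave 128 members and a ratio of at least 4 gave 50. Leaving out each replicate gave 71 to 83 members, of which 68 to 70 were among the 77. Medians over the 12 libraries in place of means gave 77 members, of which 66 were among the 77. The counts called on heating, in sense genes, in neighbours and in the control list kept within 1.5 times under every alternative run, except for sense genes higher in T4D36.5 (20 to 28 with a replicate left out, lowest without replicate 2). Counts of members that differed among strains depended on the fit. In T0 there were 2 by the likelihood ratio test, 2 by DESeq2, 7 with the replicate block and 0 to 1 with a replicate left out. In T4D25 there were 3, 3, 7 and 0 to 1 under these 4 settings in this order. In T4D36.5 leaving out a replicate gave 6 to 21, and for the strain by heat interaction it gave 2 to 10, with 21 under the replicate block. Beside these counts the replicate block changed 3 single calls: the antisense RNA of mug68 (log2 0.20, adjusted p = 0.0415, edgeR) and sty1 (0.26, adjusted p = 0.00542, edgeR) on heating, and lid2 in T0 (-0.21, adjusted p = 0.00212, edgeR). The direction turned only in values that did not pass the test with all libraries. On heating, SPCC417.03-antisense-1 was 0.0082 by DESeq2 and 0.0089 with its size factors, cct5 was 0.0076 and 0.0051 under these settings, with a replicate left out mug68 was -0.11 (without replicate 2) to 0.86 and rad2 was -0.15 to 0.090 (without replicate 1). In T0 against V25, with a replicate left out, pxr1 was -0.20 to 0.0057 (without replicate 1) and mug68 was -0.068 (without replicate 3) to 0.53. There odr1 was -0.028 by DESeq2, -0.029 with its size factors, -0.0061 with no filter, -0.0041 with spike-in rows, -0.11 without ribosomal RNA genes and -0.073 to 0.11 with a replicate left out, turned without replicate 1 (-0.056) or 2 (-0.073). The median log2 fold change of all genes in T0 against V25 was 0.12, and 0.010 without ribosomal RNA genes. The causes were not tested.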

Other observations

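After the values were read, 6 members were seen to lie opposite DNA repair genes (rad2, rad15, rad50, rad52, rad55 and slx4) and 3 opposite cohesin genes (psm1, psm3 and rec11). Mean levels in T0, G1 and V25 were 30.5, 15.1 and 3.71 CPM for the antisense RNA of rad50, a subunit of the MRN repair complex, and 28.8, 23.1 and 4.64 CPM for that of slx4, a scaffold of structure-specific nucleases. Those of psm3, the Smc3 subunit of cohesin, were 14.7, 4.88 and 4.56 CPM. The sense genes did not share a direction: in T0 against V25, slx4 had a log2 fold change of 2.31, rec11 of 1.84 and rad50 of 1.51, rad2 had -1.89 and rad15 -0.43, and psm3 and rad52 did not pass the edgeR test. The groups were put together with the values in view, so no test was made.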
